A study of Vitis vinifera with 4 samples.

Results

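This report describes MYBPA1 binding events that lie in the most densely bound megabases of the grapevine genome. DNA affinity purification sequencing (DAP-seq) mixes a tagged transcription factor with naked genomic DNA fragments and sequences the fragments that the protein retains. Chromosomes chr01 to chr19 were cut into windows of 1 Mb starting at base 1, the last window of each chromosome was dropped, and a window was called event-rich when it held 100 or more event centres. The members were thus chosen by the number of events around them in this same list. The rule found 44 event-rich windows among 449 full windows. They held 4702 of the 29115 events in full windows (16.1%), and of 30318 events in the whole list. The other 405 windows held 24413 events and served for comparison. The rule dropped the 721 events of the last windows and did not use the 482 events on chr00, which holds unplaced sequence.

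The study made 2 libraries with MYBPA1 and 2 with pIX-HALO, the tag vector with no transcription factor. All 4 used genomic DNA from young leaves of the Pinot Noir cultivar, from 1 clone of it, and protein with a HALO tag made in rabbit reticulocyte lysate. The data used were 1 list of events for MYBPA1, with no values per library. A comparison between windows could therefore not be set against the spread between libraries, and no test was run. Intervals below are 95% intervals that cover counting error alone, as if events of 1 window were independent.

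MYBPA1 belongs to the MYB family of DNA-binding proteins. In grapevine it is known as an activator of the genes that make proanthocyanidins, the condensed tannins of seeds and skins, among them those for anthocyanidin reductase and leucoanthocyanidin reductase. MYB proteins bind short DNA motifs that occur throughout a plant genome, and DAP-seq records binding without chromatin, so an event is a place that the protein can hold in the tube and not a site shown to be occupied in a leaf. The genome build of the coordinates is not given in the sources used here. No event was given a gene or a sequence for that reason.

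Event-rich windows held 100 to 122 events, with a median of 104.5. The other windows had a median of 61. Because the rule counts events, this difference is the choice itself. Just inside the limit, 6 windows of 100 or 101 events had median signal values from 43.0 to 51.3, and just outside it 15 windows of 97 to 99 events had median signal values from 47.0 to 58.8. The signal value is the authors' own measure of the strength of an event, and its scaling is not stated. The middle value of these window medians was 48.95 just inside the limit and 52.0 just outside it. Windows on either side of the limit thus overlapped in signal, and signal did not step up at the limit.

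The event-rich windows were on 16 of 19 chromosomes. Chr18 had 6, chr17 had 5, and chr01 and chr11 had 4 each. In share of a chromosome's events in full windows, chr17 led with 37.3% (518 of 1390), before chr11 with 30.1% (431 of 1432) and chr18 with 27.9% (648 of 2322). At the low end were chr10 with 8.31% (109 of 1311) and chr03 with 8.63% (106 of 1228). Chr09, chr16 and chr19 had none, and their fullest windows held 86, 86 and 97 events. Chr19 thus missed the limit by few events and chr09 and chr16 by more.

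Many event-rich windows adjoined each other. They formed 31 runs, of which 23 were single windows, 5 were pairs, 1 was a run of 3 and 2 were runs of 4. The longest runs lay on chr18 from 4000001 to 8000000, with 437 events, and on chr17 from 3000001 to 7000000, with 415 events. In the chr18 run the windows held 104, 116, 104 and 113 events in order, and in the chr17 run 101, 106, 107 and 101. The run of 3 lay on chr11 from 1000001 to 4000000 and held 330 events. These runs span several Mb, so their density is not that of a single crowded place. Pairs lay on chr05 from 3000001 to 5000000 (229 events), chr13 from 1000001 to 3000000 (226), chr01 from 3000001 to 5000000 (225), chr12 from 1 to 2000000 (209) and chr02 from 7000001 to 9000000 (207).

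Single event-rich windows were spread over 14 chromosomes. Those that start at 1000001 lay on chr03 (106 events) and chr04 (101), and those that start at 2000001 on chr02 (104) and chr07 (104). Windows starting at 3000001 on chr06 (109) and chr12 (103), at 4000001 on chr07 (119) and at 5000001 on chr04 (102) and chr06 (102) followed. Windows starting at 6000001 lay on chr01 (100), chr10 (109) and chr11 (101), and the first window of chr17 held 103. All of these start at 6000001 or lower on their chromosome. Further along were those at 10000001 on chr01 (109), chr08 (114) and chr18 (104). The rest started at 16000001 on chr15 (110), at 18000001 on chr06 (104) and chr08 (103), at 22000001 on chr07 (104), at 23000001 on chr18 (107), and at 26000001 and 29000001 on chr14 (102 and 104).

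Windows beside an event-rich window were full as well. There were 85 such neighbours, counted once per side, and their counts ran from 41 to 122 with a median of 92, while the median of all full windows was 66. Of these neighbours 26 were event-rich themselves, and the 59 others had a median of 87. At least 1 side held 80 or more events for 43 of the 44 windows, a count that was not made for the other windows. The exception was chr15 from 16000001 to 17000000, with 67 and 64 events on its sides. The steepest drop was beside chr18 from 23000001 to 24000000, where 107 events were followed by 41. On chr07 a window of 119 events, from 4000001 to 5000000, was followed by 56, and on chr02 a window of 102 events, from 8000001 to 9000000, by 42.

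The event-rich windows gathered toward the low-numbered end of the chromosomes. When the stretch between the outermost events of each chromosome, its span, was cut into 3 equal parts, 32 of 44 event-rich windows had their centre in the first, 5 in the middle and 7 in the last, where all windows numbered 155, 149 and 145. In events, 72.8% of those in event-rich windows lay in the first part of the span (95% Wilson interval 71.5 to 74%), 11.7% in the middle (10.8 to 12.6%) and 15.5% in the last (14.5 to 16.6%). Events of the other windows had 30.6% in the middle (30.1 to 31.2%). Events of 1 window mostly lie in the same part, so these intervals are too narrow. The 44 windows, and not their events, are the units for this pattern. The middle share fell steadily with the fullness of the window, from 66.0% in windows of 1 to 24 events through 49.5% at 25 to 49, 30.6% at 50 to 74 and 22.9% at 75 to 99 to 13.1% at 100 to 109 and 8.30% at 110 or more. The first part held 5.80, 17.1, 29.3 and 47.5% in the lowest 4 of those classes, whereas the last part was fullest at 50 to 74 events, with 40.1%, and had 29.6% at 75 to 99. Fuller windows were thus more often near the start than near either the middle or the end. Which end of a chromosome is numbered first is a convention of the assembly.

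**Figure D1:**
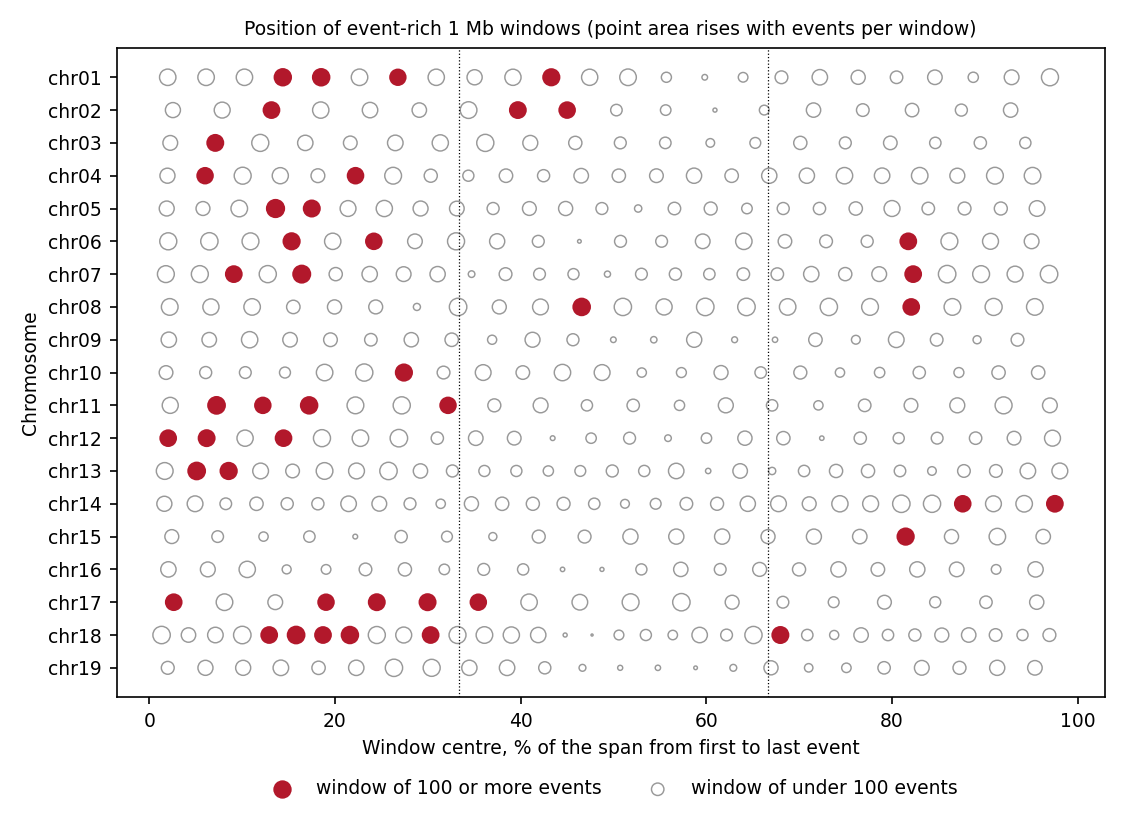
Each point is a full 1 Mb window, placed by its centre along the span of events of its chromosome (horizontal axis, % of span; dotted lines cut it into 3 equal parts; vertical axis, chromosome), with point area rising with its events. Filled points are the 44 event-rich windows, 32 of them in the first part of the span and 5 in the middle; chr09, chr16 and chr19 have none.

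By chromosome, 13 of the 16 with an event-rich window had more of them in the first than in the last part, and 3 (chr08, chr14 and chr15) had more in the last. Chr11 had 4 and chr12 had 3 in the first part and none elsewhere, and chr18 had 5 there and 1 in the last. Chr14 had both of its windows in the last part, at 87.6 and 97.5% of the span. The middle windows were on chr01 (10000001 to 11000000), chr02 (7000001 to 9000000), chr08 (10000001 to 11000000) and chr17 (6000001 to 7000000). Of the 44 windows 28 lay within 5 Mb of an end, taken as base 1 or the last event of the chromosome. This count was not made for the other windows. The first windows of chr12 and chr17 were the only 2 event-rich ones that began at base 1. The median distance from the nearer end was 3.81 Mb, against 5.62 Mb for the 379 other windows with 20 or more events. The lower quartiles were 2 and 2.60 Mb. Distances overlapped widely, at 0 to 10.6 Mb and 0 to 16.6 Mb.

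Inside the event-rich windows, events were present all along the megabase. All 440 parts of 100 kb held at least 1 event, and a part held 1 to 25 with a median of 10 (quartiles 8 and 13). In the other windows with 20 or more events, 291 of 3790 parts (7.68%) held none and the median was 6 (quartiles 3 and 9). A full window leaves less room for empty parts, so these counts follow in part from the rule. The densest 100 kb of an event-rich window held 11.9 to 23.4% of its events, with a median of 16.2%.

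The fullest window, chr05 from 3000001 to 4000000 with 122 events, held 11, 12, 15, 5, 9, 11, 11, 17, 6 and 25 events in its 10 parts. Its last part, chr05 from 3900001 to 4000000, shared the highest count among event-rich windows with chr17 from 5800001 to 5900000, also at 25. The second window, chr07 from 4000001 to 5000000 with 119, held 8, 11, 8, 19, 8, 18, 14, 7, 17 and 9. Both rose and dipped more than once within the megabase. Chr13 from 1000001 to 2000000 with 116 held 14, 10, 9, 14, 4, 10, 20, 10, 12 and 13, and chr18 from 5000001 to 6000000, also with 116, held 10, 8, 8, 16, 10, 8, 19, 12, 13 and 12. Chr11 from 1000001 to 2000000, the other window of 116, held 10, 15, 6, 6, 7, 9, 16, 18, 13 and 16. Its later parts were fuller than its middle ones. The fullest 100 kb of all windows was not in an event-rich one. It lay on chr13 from 7100001 to 7200000 with 26 events, in a window of 98.

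**Figure D2:**
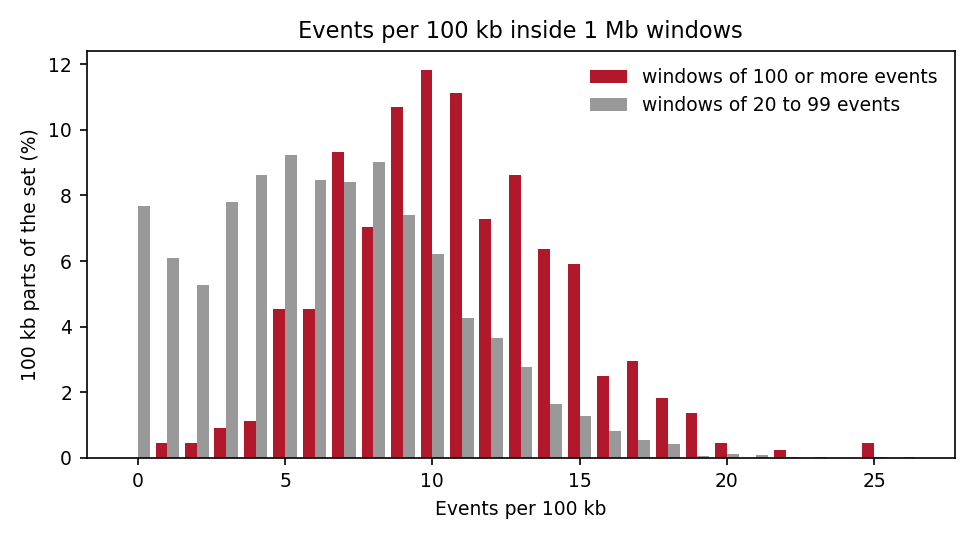
Bars give the share of 100 kb parts (vertical axis, %) that held each number of events (horizontal axis), for 440 parts of windows with 100 or more events and 3790 parts of windows with 20 to 99. No part of an event-rich window is empty, against 7.68% of the others, and the 2 sets overlap over most of the range.

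The longest stretch without an event centre in an event-rich window, counted up to the window's edges, was 37.6 to 144 kb, with a median of 55.1 kb. The other windows with 20 or more events had a median of 118 kb and reached 539 kb. More events per Mb shorten the stretches between them, so this contrast follows from the rule. The shortest of these longest stretches was in the fullest window, chr05 from 3000001 to 4000000. Chr02 from 8000001 to 9000000 (144 kb), chr03 from 1000001 to 2000000 (133 kb), chr06 from 18000001 to 19000000 (108.5 kb) and chr17 from 6000001 to 7000000 (108 kb) were event-rich in spite of a stretch of over 100 kb. On chr02 this stretch stood beside close packing elsewhere, since 49% of the events of that window had a neighbour within 1000 bp.

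Close neighbours were a little more frequent in event-rich windows. Of their events 1485 (31.6%, 95% Wilson interval 30.3 to 32.9%) had another event within 1000 bp, against 6752 (27.7%, 27.1 to 28.2%) elsewhere. Over all full windows the share was 28.3%. More events per Mb bring neighbours closer by construction, and how much of the difference this accounts for was not tested. At 200 bp or less, where events 201 bp wide overlap, the shares were 11% (10.1 to 11.9%) and 10.6% (10.2 to 11%), with overlapping intervals. The difference lay at wider spacing. Neighbours at 501 to 1000 bp applied to 11.3% of events in event-rich windows and 8.50% elsewhere, and at 201 to 500 bp to 9.29 and 8.59%. Events over 20000 bp from any other were 73 (1.55%) in event-rich windows and 1566 (6.41%) elsewhere.

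When events at most 1000 bp apart were joined, event-rich windows had 88.4 separate groups per Mb and the others 51.4. Windows chosen for their number of events hold more groups by construction, so this difference describes the choice. Of 3891 groups in event-rich windows 3217 were single events, 572 were pairs and 102 had 3 or more members. Groups of 3 or more took in 7.25% of the events, against 4.85% in the other windows. Denser events join more readily, and how much of this difference that accounts for was not tested. The largest in event-rich windows lay on chr12 with centres from 1243273 to 1245436, holding 6 events with signal values of 25.9 to 71.2. In the other windows the largest group held 7 events. Groups of 5 events lay on chr02 (7292875 to 7294758, highest signal 380; 7640469 to 7642967, highest 71.0), chr05 (3993120 to 3995225, highest 426.5), chr10 (6401596 to 6404240, highest 136) and chr17 (6961139 to 6962933, highest 243). The first chr02 group and those on chr05 and chr17 each held an event of signal over 200, whereas the other 3 held none.

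Signal values, which the rule did not use, differed little. Events in event-rich windows had a median signal of 50.9 (95% binomial interval 49.7 to 52.0) and quartiles of 37.0 and 80.6. Events in the other windows had a median of 49 (48.5 to 49.4) and quartiles of 35.0 and 78.0. The difference of 1.9 was 1.04-fold, and the intervals of counting error did not overlap, although events of 1 window are not independent. Event-rich windows held 16.5% of the summed signal, close to their 16.1% of the events. By class, the median signal was 43.7 in windows of 1 to 24 events, 46.0 at 25 to 49, 48.0 at 50 to 74, 51.0 at 75 to 99, 50 at 100 to 109 and 52.55 at 110 or more. The climb was thus over the sparser classes, and windows of 100 to 109 events (49 to 51.0) overlapped with those of 75 to 99 (50 to 51.8).

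**Figure D3:**
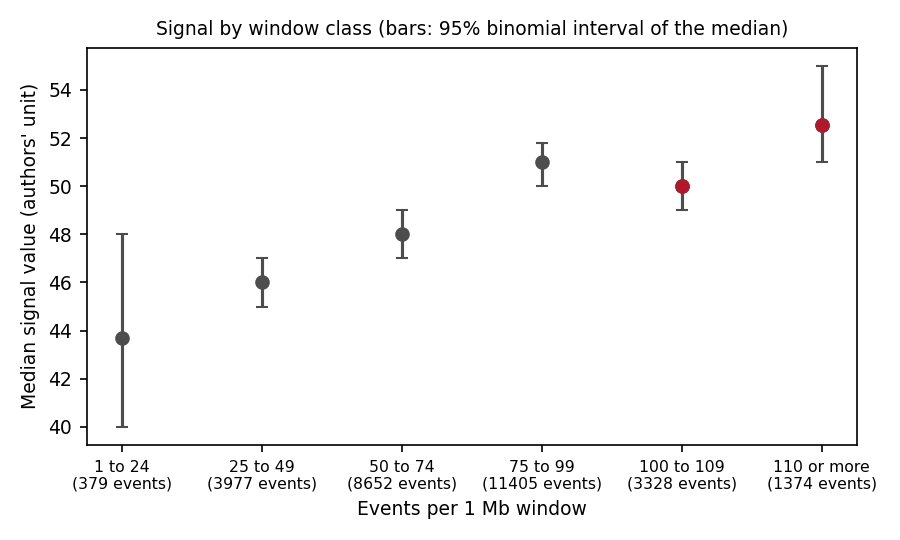
Points are median signal values of events (vertical axis, the authors' unit; the axis does not start at 0) by the number of events in their 1 Mb window (horizontal axis), with 95% binomial intervals of the median. The median is 43.7 in the sparsest class and 51.0 at 75 to 99 events, and the event-rich classes have 50 and 52.55.

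Taken window by window, medians of signal ran from 43.0 to 60 in the 44 event-rich windows, with a median of 50.8. In the 379 other windows with 20 or more events they ran from 32.0 to 71.0, with a median of 49.2. The event-rich values lay wholly within the range of the others, and 28 of 44 lay above the others' median. The highest medians of 60 were on chr01 from 4000001 to 5000000 (113 events) and chr14 from 29000001 to 30000000 (104 events), and the lowest of 43.0 was on chr04 from 1000001 to 2000000 (101 events). Chr11 from 6000001 to 7000000 had 43.8, chr18 from 23000001 to 24000000 had 44.0 and chr18 from 10000001 to 11000000 had 45.0. A full window could therefore be among the weaker or the stronger in signal. Among the runs, the chr18 run of 4 had a median of 53.0 and the chr01 pair had 57.7, while the chr17 run of 4 and the chr11 run of 3 had 49.2 each.

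Within chromosomes the difference was not uniform. Among the 16 chromosomes with event-rich windows the median signal was higher in those windows than in the other windows of the same chromosome on 13, and lower on 3. The differences had a median of 2.95. The largest in favour of event-rich windows was on chr02, at 51.0 in event-rich windows (47.0 to 55.9) and 46.0 elsewhere (44.0 to 49). The largest in size was the opposite one on chr04, at 45.4 (42.0 to 51.0) and 50.7 (48.2 to 52.8), and chr06 and chr17 differed by -0.90 and -0.15. On none of the 16 were the intervals of the 2 medians apart, and no interval of a difference was computed.

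**Figure D4:**
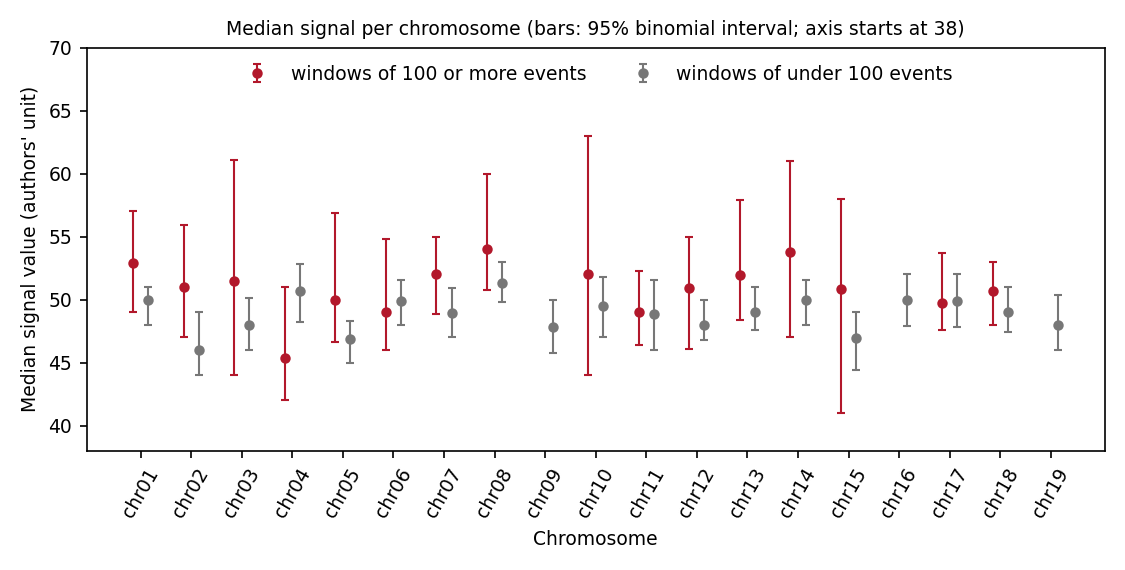
Points are median signal values (vertical axis, the authors' unit, starting at 38) on each chromosome (horizontal axis) in windows of 100 or more events and of under 100, with 95% binomial intervals. The event-rich point is higher on 13 of 16 chromosomes, lower on chr04, chr06 and chr17, and the intervals overlap on all 16.

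The authors' q-values hardly separated the sets. A −log10 q of 5 or more was reached by 58.5% of all events in full windows, by 2777 of those in event-rich windows (59.1%, 57.6 to 60.5%) and by 14245 elsewhere (58.4%, 57.7 to 59.0%). By window the share ran from 46.2% on chr18 from 10000001 to 11000000 to 69.2% on chr18 from 4000001 to 5000000. Both extremes lay on the same chromosome, 6 Mb apart. The median −log10 p was 6.52 in event-rich windows and 6.46 elsewhere.

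The 2 measures of strength were then read together, as −log10 p at like signal. In the weakest band, signals of 22 to under 30, events in event-rich windows had a median −log10 p of 2.62 (quartiles 2.32 and 3.22) and the others 2.85 (2.46 and 3.59). At 30 to under 40 the medians were 3.40 and 3.74, and at 50 to under 75 they were 8.01 and 8.44. The median was lower in event-rich windows in 8 of 9 bands and higher at 200 to under 400, with 60.7 and 59.4. The quartile ranges overlapped in all 9 bands. In steps of 1 signal unit from 22 to under 60, the median was lower in event-rich windows in 20 of 38 steps, higher in 1 and equal in the others, with as few as 12 events in a step. The weakest band also held fewer of the events, 9.55% in event-rich windows and 12.9% elsewhere.

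**Figure D5:**
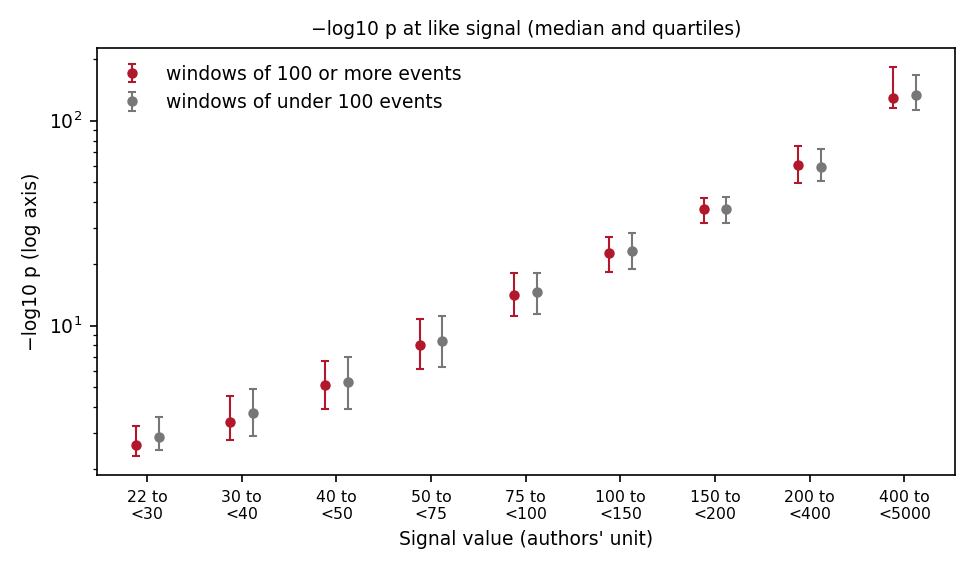
Points are medians of −log10 p (vertical log axis) in bands of signal value (horizontal axis, the authors' unit), with quartiles as bars, for events in windows of 100 or more and of under 100 events. The event-rich median is lower in 8 of 9 bands, by little compared with the quartile ranges.

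Strong events were present in event-rich windows at about the common rate. Of their events 264 (5.61%, 4.99 to 6.31%) were among the 1466 strongest in full windows, the top 5% with signals of 189 or more, and 1202 of the others were (4.92%, 4.66 to 5.20%). Over all full windows the share was 5.04%. With the window grid moved by 500 kb the order turned, at 4.80% in event-rich windows and 5.05% in the others. In the top 1%, at 380 or more, were 51 of the events in event-rich windows (1.08%) and 0.991% of the others. An event-rich window held 2 to 18 events of the top 5%, with a median of 6, and 31 of 44 held at least 1 of the top 1%. The other windows with 20 or more events held 0 to 13 of the top 5%, with a median of 3, and 165 of 379 held at least 1 of the top 1%. A window with more events has more chances of holding a strong one, so these counts per window follow in part from the rule. The 18 were in chr01 from 4000001 to 5000000, where the strongest event had 396. That is within the top 1% but below 427, the median of the strongest events of event-rich windows. Chr02 from 8000001 to 9000000, chr14 from 29000001 to 30000000 and chr18 from 4000001 to 5000000 had 10 each, and chr08 from 18000001 to 19000000 had 11.

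The strongest event in any event-rich window was found on chr18 from 4700537 to 4700737. Its signal of 1174 was 23.1 times the median in such windows and ranked 15 in the whole list. Its −log10 p is written as 999, the value for a p too small to write. An event with a signal of 744 lay close by, on chr18 from 4703989 to 4704189. The second strongest, on chr01 from 10796220 to 10796420, had 935 and stood 3184 bp from the nearest other event. Also among the 10 strongest were 3 events on chr14 within 29000001 to 30000000, at 29520478 to 29520678 (780), 29525686 to 29525886 (765) and 29822578 to 29822778 (715). Another was on chr14 from 26789024 to 26789224 (872), with another event 42 bp away. Chr14 thus supplied 4 of the 10 from 2 windows. The others were on chr11 from 2437158 to 2437358 (750) and on chr12 from 1732054 to 1732254 (730) and from 1717015 to 1717215 (723). The 14 events of higher signal than the first of these lay outside event-rich windows.

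The strongest event of a window ran from 198 to 1174, with a median of 427, and in the other windows with 20 or more events from 117 to 4280, with a median of 353. A maximum over more events is higher by construction. The lowest of these maxima was on chr17 from 3683281 to 3683481 (198), in a window of 101 events, and the next on chr02 from 2890669 to 2890869 (202.5), in one of 104. These windows were full without holding any event of the top 1%. At the weak end, event-rich windows reached down to the lowest signal of the list, 22, on chr02 from 2045010 to 2045210 among others.

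The place of the window borders mattered. Without a fixed grid, the fullest stretch of 1 Mb on each chromosome held more, with 135 events on chr05 from 3507918 to 4507917, 128 on chr11 from 1664493 to 2664492 and 127 on chr07 from 4200956 to 5200955. Chr19, with no event-rich window on the grid, had a stretch of 110 from 6570255 to 7570254. The fullest stretches of chr09 and chr16 held 97 and 95 and stayed below 100. When the grid was moved by 500 kb, 42 windows were event-rich, and they held 50.5% of the 4702 events.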

How the data were processed

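The deposited list of MYBPA1 events has no columns per library. The tools named in the submitters' processing notes are fastp 0.21.0 and Bowtie2 2.0, and the list's own name gives GEM as the caller. Sources used here do not state the caller settings, the control, the genome build or the pooling of the 2 MYBPA1 libraries. The authors' values per event are a signal value, −log10 p, −log10 q and a display score, and the deposited display score was not used. Decimal commas were read as points. The list begins at a signal of 22 and a −log10 q of 2, so weaker places are not in it.

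An event's centre was its middle base, and positions count from 1. Windows, classes, parts of 100 kb, the 3 equal parts of each span, distances and medians were computed with Python 3.11.15, numpy 2.4.6, pandas 2.3.3 and scipy 1.17.1, and plots with matplotlib 3.10.9. Shares have 95% Wilson intervals and medians 95% order-statistic intervals. The counting steps were checked on simulated data. Depth is unknown, since no library totals were used here. Members, classes and lists were chosen with earlier results of these data known. Named were the 10 fullest windows, the longest runs, the windows of highest and lowest median signal, the 10 strongest events and the windows at the limit, and further regions were picked as extremes once values were known.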

Additional observations from a re-analysis of the deposited data

How the results depend on the processing

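Of the 5 alternatives 4 changed 1 choice each, and counting the stronger 50% of events also lowered the limit. With a limit of 90 events the event-rich windows held 9147 events, with 110 they held 1374, and with events within 200 bp of a stronger one left out before counting they held 2517. Moving the grid by 500 kb gave 4584, but these shared only 50.5% of the 4702 events. Counting the stronger 50% of events with a limit of 50 gave 3838, which took in 44.0% of the 4702. That setting leaves out events below the median signal of chr01 to chr19, so members weaker than that could not be shared. Of its 3838 events, 53.9% were among the 4702. The median signal was 52.55 at 110 events and 79.0 in the stronger 50%, which selects on signal itself. The share with a −log10 q of 5 or more was 60.6% at 110 events, and in the stronger 50% it was 92.2%, there below the 92.9% of the other windows. The share in the middle of the span was 15.5% at 90 events, 8.30% at 110, 8.58% without close events and 19.9% in the stronger 50%, and stayed below that of the other windows (28.5 to 33.1%) under all 5. The share with a neighbour within 1000 bp was 23.2% without close events and 23.4% in the stronger 50%, and stayed above that of the other windows. The share in the top 5% was 4.80% with the grid moved, below the 5.05% of the other windows, so its direction rests on where the borders lie. The median signal stayed above that of the other windows under all 5, by 1.0 to 3.55. The causes of these shifts were not tested. No paired analysis was possible because events carry no values for single libraries, and leaving out a replicate was not run for the same reason. What unknown depth kept out of the list was not tested.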
